A study of Homo sapiens with 6 samples.

Results

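BAZ2A and 9 genes that work with it or share its protein family were examined in Huh7 cells that overexpressed the circular RNA hsa_circ_0098181. The 10 genes, BAZ1A, BAZ1B, BAZ2A, BAZ2B, SMARCA1, SMARCA5, BPTF, CECR2, RSF1 and UBTF, were taken by symbol from a table of 50868 genes. They were selected on the measured counts of BAZ2A, which were lower with overexpression and varied little between replicates. The BAZ2A values in this comparison are therefore given as a description, with no test. All 10 genes passed the filter on low counts, which left 15055 genes for testing.

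Huh7 is an established human hepatoma line. 3 libraries of total RNA came from cells transfected for 48 h with a plasmid carrying hsa_circ_0098181 (overexpression), and 3 from cells given the control plasmid (control), both in the PLC5-CIR carrier with Lipofectamine 2000, and nothing else was said to differ between the groups. Transient transfection reaches a share of the cells, and in bulk RNA a change in few cells and a smaller change in every cell cannot be told apart. Circular RNAs are closed loops made by back-splicing. The study asked whether this one acts through the microRNA miR-18a-3p. By RT-qPCR it reported less miR-18a-3p with the circle, and more RNA of PPARA, the gene it names as a target of this microRNA.

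ISWI chromatin remodelling complexes slide and space nucleosomes. Each holds 1 of the ATPases SMARCA5 (SNF2H) or SMARCA1 (SNF2L) and at least 1 large partner protein, which directs the motor to its place and often carries a bromodomain or PHD finger. BAZ2A (TIP5) joins SMARCA5 in the nucleolar remodelling complex NoRC, which silences ribosomal RNA genes, and UBTF is the factor that keeps the active copies of these genes open for RNA polymerase I.

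Because the study named miR-18a-3p as the microRNA bound by the circle, its mature sequence is shown first, with its seed (bases 2 to 8) in capitals. RefSeq places it on chromosome 13 at 91350797 to 91350819, plus strand (GRCh38.p14).

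hsa-miR-18a-3p: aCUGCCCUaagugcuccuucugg

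The heptamer that pairs with this seed, AGGGCAG, was searched in the 3′ UTR of the longest coding transcript of each gene in GENCODE 29 (GRCh38), on the transcript strand. It occurred in 3 of the 10 members, BAZ2A, BAZ1B and UBTF, and in 2061 of the 12556 tested genes with a 3′ UTR (16.4%). The median 3′ UTR of the tested genes had 989 bases. All members but BAZ1A (771) and SMARCA1 (316) had a longer one, so these shares were not compared at like length. The matches are printed 5′ to 3′ with 10 bases on either side and the heptamer in capitals.

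BAZ2A: agctggggagAGGGCAGggaggcttcc

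BAZ1B: gagggggagcAGGGCAGtgctgtgtct

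UBTF: gccccaccccAGGGCAGccagggagag

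The BAZ2A heptamer lay at bases 794 to 800 of a 2688-base 3′ UTR, chr12:56597818-56597824 on the minus strand. That of BAZ1B lay at bases 604 to 610 of 1311, chr7:73441099-73441105 on the minus strand. That of UBTF lay at bases 17 to 23 of 2209, chr17:44207219-44207225 on the minus strand. The fitted log2 fold changes (overexpression against control) were -0.53 for BAZ2A, -0.14 for BAZ1B and -0.03 for UBTF. A match of letters is a description, not a binding site, and whether miR-18a-3p acts on these genes was not tested.

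The labels were checked with SOX5, the host gene of the circle, whose counts were 26907, 33577 and 24906 with overexpression (replicates 1, 2 and 3, as in every series of values below) against 453, 404 and 380 in control. Library totals ran from 11130902 to 14138262 counts. In edgeR's test, with p-values adjusted by Benjamini and Hochberg's method, 4 genes were called higher and 2 lower (0.0399% of 15055), and 828 genes had an unadjusted p under 0.05. The median log2 fold change of all tested genes was 0.0023. Replicate 1 of each group stood apart from the other libraries in genes with long exon sequence, and values without it are given for the members and gene lists. The hepatoma products ALB (4365 to 5843 CPM, counts scaled to library size) and AFP (10801 to 13276 CPM) were abundant in every library, and the 10 hepatocyte markers summed to 32154 to 34886 CPM with overexpression and 31189 to 37096 CPM in control. The 9 markers of leukocytes, endothelium, bile duct and connective tissue summed to 194 to 211 CPM and 186 to 218 CPM. Of this KRT19 held at least 105 CPM in each library, and the endothelial marker PECAM1 46.9 to 59.1 CPM. PTPRC, CD68, LYVE1 and COL1A2 were at 0.766 to 12.8 CPM, while KDR (also endothelial), KRT7 and DES were at most 0.357 CPM.

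The 10 genes covered a wide range of levels. Per length, the ATPases were highest: deposited FPKM (fragments per kb of gene length, scaled to sequencing depth) averaged 43.3 for SMARCA5 and 42.9 for SMARCA1 over the 6 libraries. BAZ1B followed at 26.6 FPKM. BAZ2A (10.6 FPKM) and UBTF (9.58 FPKM) came next, then BAZ1A (6.28 FPKM) and BPTF (4.46 FPKM). In FPKM, the order of BAZ2A and UBTF differed between the groups. With overexpression BAZ2A was at 8.76 FPKM against 9.58 FPKM for UBTF, lower in each of the 3 libraries. In control BAZ2A was at 12.4 FPKM against 9.58 FPKM, higher in each. RSF1 (2.26 FPKM), CECR2 (1.81 FPKM) and BAZ2B (1.55 FPKM), each a long gene, were lowest. The ranges over 6 libraries overlapped between SMARCA5 and SMARCA1, BAZ2A and UBTF, BAZ1A and BPTF, RSF1 and CECR2, and CECR2 and BAZ2B. Compared within each library, BAZ1A was nevertheless above BPTF, and RSF1 above CECR2, in every library. The order of SMARCA5 and SMARCA1, and that of CECR2 and BAZ2B, varied between libraries.

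The order of the ATPases depended on the length used. The length implied by the deposited FPKM was 1.71 times the merged exon length for SMARCA1 and 1.05 times for SMARCA5. Counted per kilobase of merged exon, SMARCA1 (68.1 to 81.6 CPM per kb) lay above SMARCA5 (43.2 to 50.9 CPM per kb) in every library. BAZ2A, with a ratio of 1.82, had 14.7 to 24.0 CPM per kb, below BAZ1B (26.8 to 36.5 CPM per kb) in every library. UBTF had a ratio of 1.59 and 13.7 to 17.5 CPM per kb. On this scale BAZ2A lay below UBTF only in overexpression replicate 1. The FPKM order of BAZ2A and UBTF with overexpression therefore depended on the length used.

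**Figure D1:**
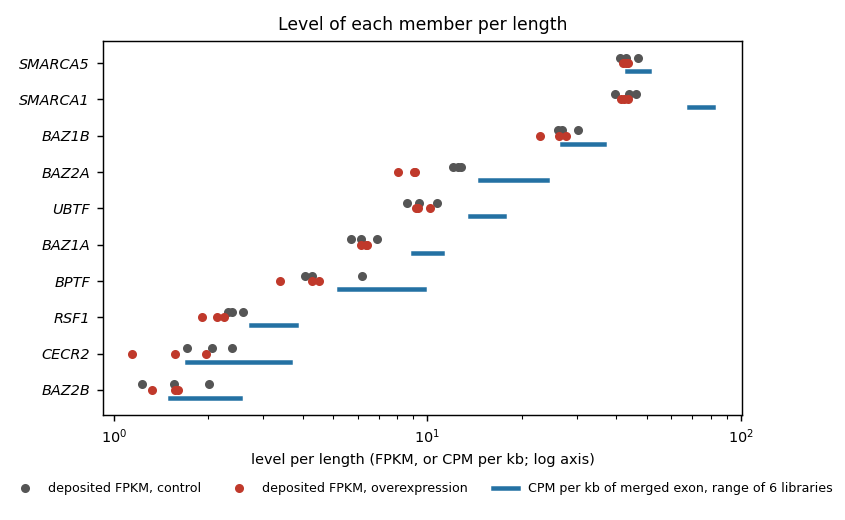
Level per length of each member on a log axis: points are the deposited FPKM of single libraries (grey, control; red, overexpression), and blue bars the range over 6 libraries of CPM per kb of merged exon. The red points of BAZ2A (8.08 to 9.15 FPKM) and its grey points (12.1 to 12.8 FPKM) do not overlap, and SMARCA1 passes SMARCA5 on the merged-exon scale.

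BAZ2A (ENSG00000076108) lies on chromosome 12 at 56595596 to 56636816, minus strand (hg38), and has 10918 bases of merged exon. Reads counted to it numbered 2271, 2493 and 2230 with overexpression and 2840, 2814 and 3024 in control. Scaled to library size this was 161, 178 and 180.2 CPM with overexpression against 262, 239.6 and 249 CPM in control. All 3 overexpression libraries lay below all 3 controls, with a gap of 59.5 CPM between the nearest pair.

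The group means of BAZ2A were 173 ± 10.6 CPM and 250 ± 11.3 CPM (SD, n = 3 each). Overexpression thus stood at 69.1% of control, a log2 fold change of -0.53. Deposited FPKM gave 8.76 ± 0.591 against 12.4 ± 0.388 (SD, n = 3 each). The standard deviation of log2 CPM within groups was 0.078 for BAZ2A and 0.086 to 0.321 for the other members, the small spread for which the gene was picked. Of all tested genes, 2.92% had a lower log2 fold change, a place that the choice of BAZ2A for a low value favours. Leaving out any single library gave -0.56 to -0.48, a narrow range that the choice for small spread favours.

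**Figure D2:**
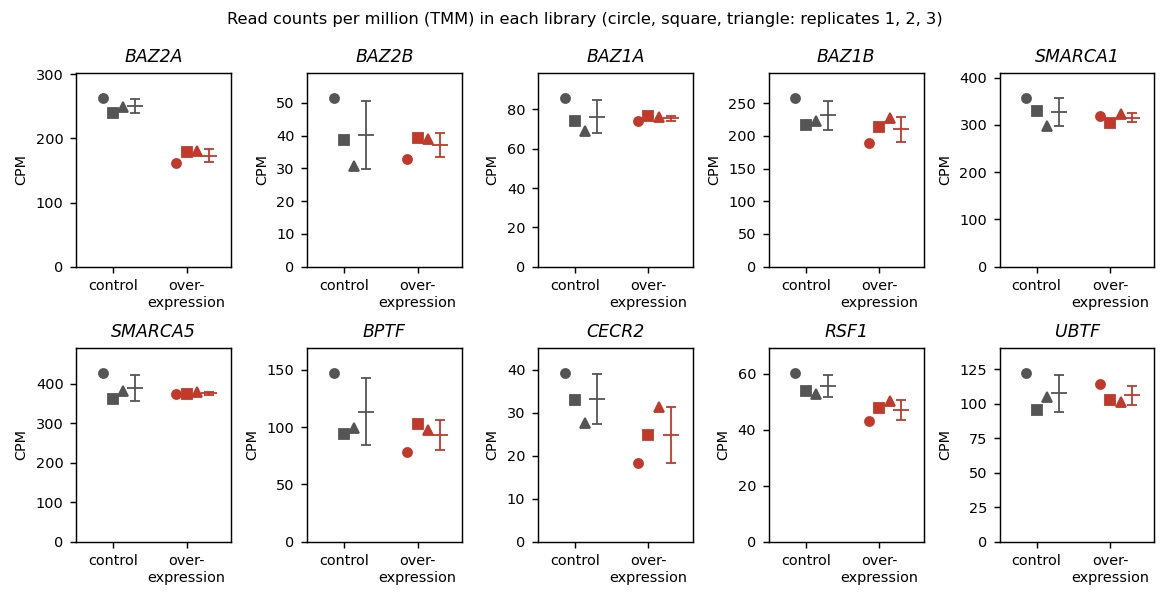
CPM of the 10 members in each library, with axes from 0; circle, square and triangle are replicates 1, 2 and 3, and bars show mean ± SD (n = 3). The 3 BAZ2A values with overexpression (161 to 180.2 CPM) sit below the 3 control values (239.6 to 262 CPM), a difference for which BAZ2A was chosen. In 8 of the 10 panels the groups overlap.

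RBMS2, an RNA-binding protein gene on the opposite strand, overlaps the last 601 bases of BAZ2A, and whether counting used strand is not given in the sources used here. RBMS2 had 93, 156 and 240 counts with overexpression and 152, 344 and 410 in control, or 4.1% to 13.6% of the BAZ2A count in the same library. Its log2 fold change was -1.06 (edgeR unadjusted p = 0.0318, adjusted p = 0.797). With both genes summed, an alternative chosen after seeing the data, the log2 fold change was -0.57.

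Of the other 5 tested genes within 100 kb of BAZ2A, 0 were called, where 0.0399% of all tested genes were. ATP5B, PTGES3, NACA and PRIM1 had log2 fold changes of 0.23, 0.08, 0.41 and 0.13, and that of RP11-153M3.1 was -0.08, each with an edgeR adjusted p of at least 0.797. NACA, which codes for a subunit of the nascent polypeptide-associated complex, had an unadjusted p of 0.0284 in edgeR's test. Its values were 224, 250.3 and 337 CPM with overexpression and 189, 193 and 227 CPM in control.

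Genes whose profile over the 6 libraries lay nearest to that of BAZ2A, by the root mean square distance of centred log2 CPM, were EYA4 (0.037), LARP6 (0.079), TRANK1 (0.081), the TDG pseudogene TDGP1 (0.082) and CDH1 (0.083). CDH1, which encodes the epithelial adhesion protein E-cadherin, had 52.0, 63.7 and 60.4 CPM with overexpression and 95.6, 92.4 and 84.5 CPM in control. EYA4, a transcriptional coactivator and phosphatase gene, had 11.5, 12.8 and 12.9 CPM against 19.5, 18.6 and 17.9 CPM. These genes were picked for the same contrast, so their differences are a description, and none was a member of a list examined here.

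No difference was detected in the ISWI ATPases. SMARCA5 (ENSG00000153147, chromosome 4 at 143513463 to 143557486, plus strand) had 373, 374 and 380 CPM with overexpression and 426, 362 and 381 CPM in control. The groups overlapped, and only control replicate 1 stood apart. The log2 fold change was -0.05 ± 0.09 (SE, 95% interval -0.26 to 0.15, edgeR adjusted p = 0.903).

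SMARCA1 (ENSG00000102038, chromosome X at 129446501 to 129523500, minus strand), the second ISWI ATPase, had 318, 305 and 323 CPM with overexpression and 356, 329 and 297 CPM in control. The control libraries spanned all overexpression values. The log2 fold change was -0.05 ± 0.09 (SE, 95% interval -0.26 to 0.16, edgeR adjusted p = 0.907). Both intervals leave out a decrease as large as the fitted value of BAZ2A, although that comparison was not tested. That value belongs to a gene chosen for being low in these data, so its size is favoured by the choice.

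BAZ2B (ENSG00000123636, chromosome 2 at 159318979 to 159616692, minus strand), the closest relative of BAZ2A, had 32.8, 39.4 and 38.8 CPM with overexpression. Its control values of 51.3, 38.6 and 30.8 CPM held both the highest and the lowest of the 6 libraries. The log2 fold change was -0.12 ± 0.18 (SE, 95% interval -0.54 to 0.30, edgeR adjusted p = 0.897). The interval reaches to the fitted value of BAZ2A, so a change of that size in BAZ2B is not left out by these data.

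BAZ1A (ENSG00000198604, chromosome 14 at 34752731 to 34875647, minus strand), the large subunit of the ACF and CHRAC complexes, had 73.9, 76.4 and 75.9 CPM with overexpression and 85.5, 74.3 and 69.2 CPM in control. The groups overlapped, with a log2 fold change of -0.02 ± 0.10 (SE, 95% interval -0.25 to 0.22, edgeR adjusted p = 0.98). BAZ1B (ENSG00000009954, chromosome 7 at 73440398 to 73522278, minus strand), the Williams syndrome transcription factor of the WICH complex, had 189, 214 and 227 CPM against 257, 216 and 222 CPM. Its groups overlapped too, with a log2 fold change of -0.14 ± 0.11 (SE, 95% interval -0.39 to 0.10, edgeR adjusted p = 0.803), and without control replicate 1 the value was -0.06.

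BPTF (ENSG00000171634, chromosome 17 at 67825524 to 67984378, plus strand), the large subunit of NURF, had 78.7, 103 and 98.0 CPM with overexpression and 147, 94.2 and 99.7 CPM in control. The difference rested on control replicate 1: the log2 fold change was -0.28 ± 0.18 (SE, 95% interval -0.70 to 0.13, edgeR adjusted p = 0.797), and -0.05 without that library. Of the 31-base stretches in its transcripts, 6.68% also occur in another gene on either strand, so its reads can be ambiguous. This share was 6.14% for BAZ2A, mostly RBMS2, and highest for SMARCA5 (13.6%).

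CECR2 (ENSG00000099954, chromosome 22 at 17359949 to 17558149, plus strand), the bromodomain partner in the CERF complex, had 18.4, 24.9 and 31.4 CPM with overexpression and 39.2, 33.1 and 27.6 CPM in control. It had the widest spread of the members, and overexpression replicate 3 lay above control replicate 3. The log2 fold change was -0.42 ± 0.21 (SE, 95% interval -0.89 to 0.05, edgeR adjusted p = 0.797), -0.24 without overexpression replicate 1 and -0.11 without replicate 1 of both groups.

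RSF1 (ENSG00000048649, chromosome 11 at 77659996 to 77821017, minus strand), the histone-binding subunit of the RSF complex, had 43.2, 47.8 and 50.2 CPM with overexpression and 60.1, 53.7 and 52.8 CPM in control. The 3 overexpression values lay below the 3 controls. The log2 fold change was -0.24 ± 0.10 (SE, 95% interval -0.48 to -0.002). The unadjusted p was 0.0486 and the edgeR adjusted p was 0.797, so RSF1 did not pass the correction. Without replicate 1 of both groups the log2 fold change was -0.12.

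UBTF (ENSG00000108312, chromosome 17 at 44205033 to 44221626, minus strand) had 114, 103 and 101 CPM with overexpression and 122, 95.6 and 105 CPM in control. The groups overlapped, with a log2 fold change of -0.03 ± 0.11 (SE, 95% interval -0.28 to 0.23, edgeR adjusted p = 0.971).

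Of the 9 members other than BAZ2A, 0 were called at an adjusted p under 0.05, where 0.0399% of all tested genes were called. At an unadjusted p under 0.05, 1 of 9 was lower, against 3.08% of all tested genes, and 0 were higher, against 2.42%. DESeq2 and limma also called 0 of the 9. All 9 had a fitted log2 fold change below 0, with a median of -0.12. The values of the 2 groups did not overlap, with overexpression lower, for 2 of 10 members (BAZ2A, which was chosen for it, and RSF1), where 6.5% of all tested genes and 10.8% of the 5224 tested genes with at least 6000 bases of exon showed the same.

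The direction shared by the 9 members followed replicate 1 of each group, and control replicate 1 most. Control replicate 1 was the highest of the 6 libraries in 9 of 9 members. Overexpression replicate 1 was the lowest of the overexpression libraries in 7 of 9, but the lowest of all 6 libraries in only 4 of 9. The median of the 9 members, as a deviation of log2(CPM + 0.5) from each gene's own mean, was -0.21, -0.04 and 0.00 with overexpression and 0.22, -0.03 and -0.03 in control. With replicate 1 of both groups left out, an alternative chosen after seeing the data, 2 of 9 members had a log2 fold change below 0, with a median of 0.02. Leaving out control replicate 1 alone left 4 of 9 below 0, with a median of 0.01. With overexpression replicate 1 alone left out, the median was -0.07.

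BAZ2A departed from its own mean in every library, by -0.37, -0.22 and -0.21 with overexpression and by 0.33, 0.21 and 0.26 in control. Replicate 1 was also its most extreme library in each group. Without replicate 1 of both groups its log2 fold change was -0.45, against -0.53 with all libraries. BAZ2A was chosen on these counts for a low value and small spread, which favours such an even pattern.

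**Figure D3:**
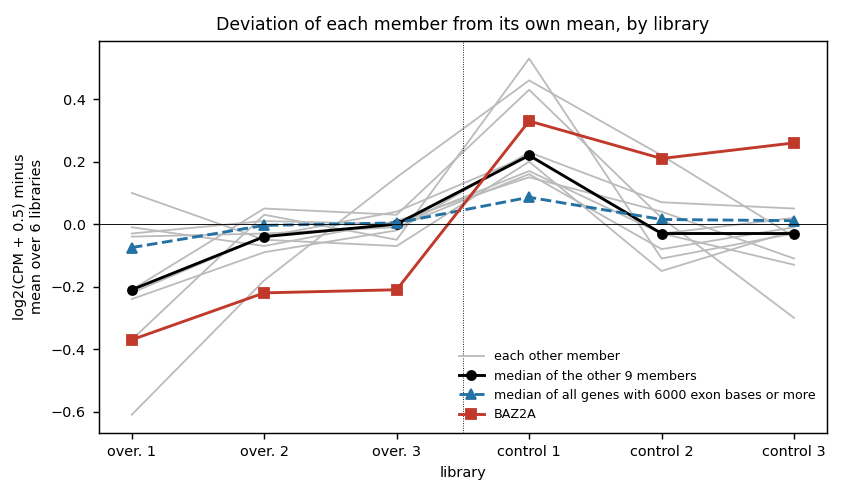
Deviation of log2(CPM + 0.5) from the mean over 6 libraries, by library: grey lines, each member other than BAZ2A; black circles, their median; blue triangles, the median of all tested genes with 6000 exon bases or more; red squares, BAZ2A. The black line leaves 0 mainly in overexpression replicate 1 (-0.21) and control replicate 1 (0.22). The red line lies at -0.21 or below in all overexpression libraries and at 0.21 or above in all controls, a pattern for which BAZ2A was chosen.

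Exon length moved with the same libraries. Over all tested genes, the median log2 fold change was 0.10 (2253 genes) under 2000 bases of merged exon, 0.01 (3407 genes) from 4000 to 6000, -0.08 (1985 genes) from 8000 to 12000 and -0.13 (886 genes) from 12000 bases up. Of the 10 members, 9 had at least 6000 bases. Genes of that length had a median log2 fold change of -0.06, and their median deviation was -0.075 in overexpression replicate 1 and 0.086 in control replicate 1, against -0.004 to 0.015 in the other 4 libraries. Among them 2.95% had a lower log2 fold change than BAZ2A, which was chosen for a low value, so this share is a description.

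After each library's trend with exon length and GC content was removed, the median of the 9 members was -0.04 and 6 of 9 were below 0, with BAZ1A (0.06), BAZ2B (0.07) and SMARCA5 (0.02) above. RSF1 moved from -0.24 to -0.09 and BPTF from -0.28 to -0.14. BAZ2A moved from -0.53 to -0.44 and CECR2 from -0.42 to -0.33. What makes length and replicate 1 move together was not tested.

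**Figure D4:**
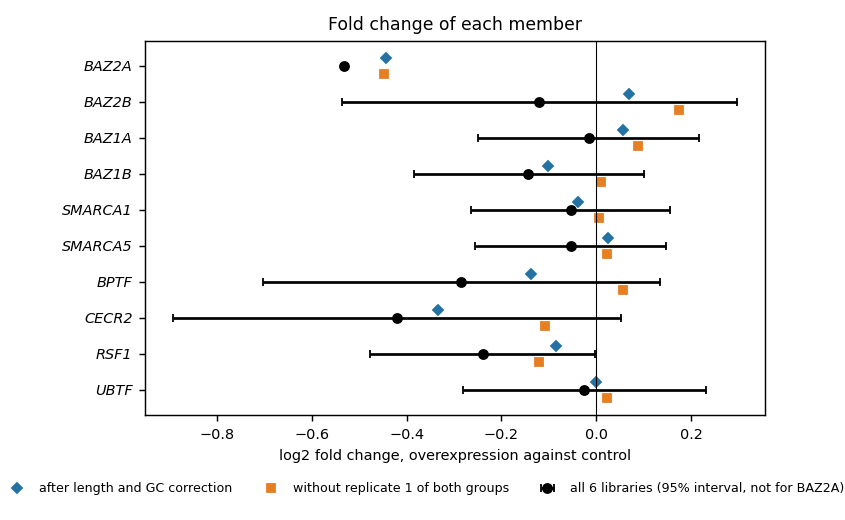
Log2 fold change of each member, overexpression against control: black circles, all 6 libraries, with 95% intervals except for BAZ2A; blue diamonds, after the length and GC correction; orange squares, without replicate 1 of both groups. The 3 values of BAZ2A, which was chosen for a low value and small spread, lie between -0.53 and -0.44. The orange squares of the other members lie from -0.12 to 0.17.

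**Figure D5:**
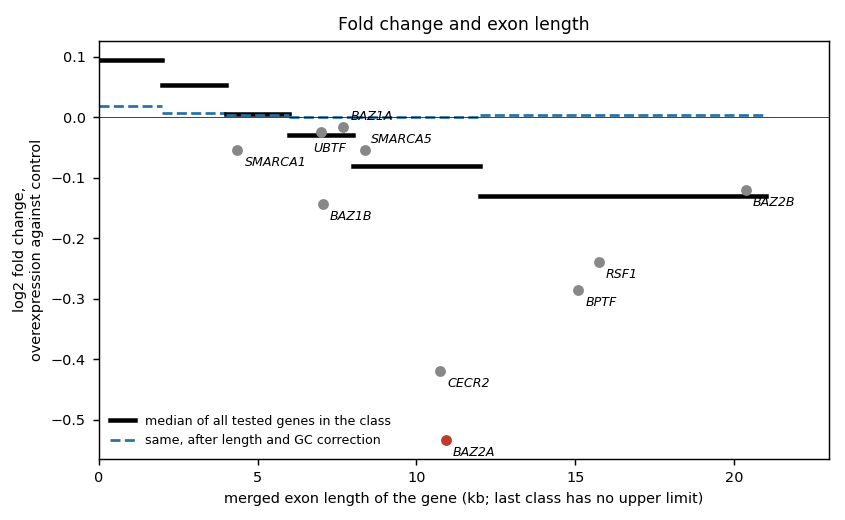
Log2 fold change against merged exon length (kb): points are the members (BAZ2A in red), black bars the median of all tested genes in each length class, and dashed blue bars the same median after the length and GC correction. The black bars descend from 0.10 to -0.13 with length, and BAZ2A, which was chosen for a low value, lies below the bar of its class (-0.08).

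Genes around these members were examined in 5 lists. In each list 0 genes passed an adjusted p of 0.05 in edgeR's test (smallest adjusted p 0.797), where 0.0399% of all tested genes did. Of 12 further ISWI subunits and partners, 6 had a log2 fold change above 0 and 6 below, with a median of -0.02. CHRAC1, a histone-fold subunit of CHRAC, had the highest value (0.30, standard error 0.30) through overexpression replicate 1 alone, with 37.9, 18.0 and 18.1 CPM against 25.1, 17.1 and 18.1 CPM. ERCC6, a remodelling ATPase of transcription-coupled repair, had the lowest (-0.22, standard error 0.27), with 6.23, 8.56 and 5.90 CPM against 9.60, 9.45 and 5.18 CPM. Without replicate 1 of both groups the log2 fold changes were 0.04 for CHRAC1 and -0.01 for ERCC6, and 6 of the 12 genes were below 0.

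Among 16 silencing partners of ribosomal DNA, the setting in which BAZ2A acts, 6 had a log2 fold change above 0 and 10 below, with a median of -0.05. In 3 of the 16, SIN3A among them, the groups did not overlap, with overexpression lower, against 6.5% of all tested genes. Without replicate 1 of both groups 8 of 16 were below 0 (median -0.01), and without control replicate 1 alone 7 of 16 (median 0.02). SIN3A, the scaffold of a histone deacetylase complex, had the lowest (-0.23, standard error 0.12) and SIRT7, a nucleolar deacetylase, the highest (0.17, standard error 0.17). SIN3A had 76.1, 79.0 and 79.8 CPM with overexpression and 108, 83.1 and 84.1 CPM in control, where replicate 1 stood apart. Its log2 fold change was -0.09 without that library and -0.07 without replicate 1 of both groups. SIRT7 had 18.3, 24.7 and 25.5 CPM against 17.5, 23.8 and 19.7 CPM.

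Of 15 genes of the RNA polymerase I machinery, 5 had a log2 fold change above 0 and 10 below, with a median of -0.08 (11 below and a median of -0.08 without replicate 1 of both groups). At an unadjusted p under 0.05, 1 of 15 was lower and 0 were higher, where 3.08% and 2.42% of all tested genes were. This was TTF1, the terminator protein that recruits NoRC to ribosomal genes, with 20.2, 19.1 and 20.4 CPM with overexpression and 25.7, 22.2 and 25.5 CPM in control. Its groups did not overlap, with overexpression lower, as for 2 of the 15 genes (the other was TWISTNB, named here after its values were seen) and 6.5% of all tested genes. With a log2 fold change of -0.30 ± 0.11 (SE) its edgeR adjusted p was 0.797. TTF1 has 3215 bases of exon, and its value was -0.31 after the length and GC correction and -0.27 without replicate 1 of both groups. Of 21 ribosome biogenesis factors, 12 were above 0 and 9 below, with a median of 0.02, from NOLC1 at -0.19 to BOP1 at 0.27, both of which overlapped between groups. Without replicate 1 of both groups the balance turned, with 14 of 21 below 0 and a median of -0.03, and NOLC1 was at -0.08 and BOP1 at 0.09.

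Of the 18 ATPases of other remodelling families, 17 were tested and 15 of these had a log2 fold change below 0, with a median of -0.14 and a median exon length of 14126 bases. Without replicate 1 of both groups 10 of 17 were below 0 (median -0.02), without control replicate 1 alone 14 of 17 (median -0.10), and after the length and GC correction 9 of 17 (median -0.01). The 3 with an unadjusted p under 0.05 were SRCAP, INO80 and ATRX, each with an edgeR adjusted p of 0.797, where 3.08% of all tested genes were lower at that unadjusted p. In these 3 and in SMARCAD1, named here after its values were seen, the groups did not overlap, with overexpression lower. That is 4 of 17, against 6.5% of all tested genes and 10.8% of those with at least 6000 bases of exon. SRCAP, which deposits the histone variant H2A.Z, had 122, 131 and 154 CPM with overexpression and 170.4, 181 and 182 CPM in control. Its log2 fold change was -0.39 ± 0.11 (SE), -0.30 after the length and GC correction and -0.35 without replicate 1 of both groups. INO80 (-0.30 in log2 fold change) and ATRX (-0.27) were at -0.26 and -0.10 after the correction, and at -0.22 and -0.11 without replicate 1 of both groups.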

How the data were processed

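Total RNA of 6 Huh7 transfections was sequenced, and groups and replicate numbers were read from the sample titles. The table deposited by the authors gives each gene an unnormalized whole-number count and an FPKM in every library. FPKM values were scaled by the authors to depth and gene length. If that depth is the count total, the length used was 1.05 to 1.82 times the merged exon length for the 10 members. The submitters' processing notes name TopHat2 2.0.9 and hg38. The counting tool, its annotation and its use of strand are not given in the sources used here. Of the gene IDs, 98.5% were in GENCODE 29, and 94.8% of those had the same coordinates, so its exons gave lengths and GC content.

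Counts were tested with edgeR 4.0.16 (R 4.3.3). Genes were kept by filterByExpr (minimum count 10), scaled by TMM and fitted by quasi-likelihood (glmQLFit, glmQLFTest) on group alone. Tests were two-sided, and p-values were adjusted by Benjamini and Hochberg's method over 15055 genes. The fitted biological coefficient of variation was 16.1%. Standard errors were derived from the F statistic and 95% intervals from its degrees of freedom. CPM used TMM library sizes. Library totals were 11130902 to 14138262 counts, where 3 counts correspond to at most 0.277 CPM. Such a floor covers counting error only: PCR copies could not be told from separate molecules. Chi-square per degree of freedom between libraries of a group was 10.1 to 20.9, so none was a copy. The labels do not say that replicates are separate cultures, so p-values measure the spread between these libraries.

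Members and gene lists were chosen with earlier results of these data known. Named besides the members were SOX5, the 5 genes nearest to BAZ2A in profile, tested genes within 100 kb of it, and in each list up to 3 genes per direction with the largest change at an unadjusted p under 0.05, otherwise the lowest and the highest. As alternatives, the counts were fitted with DESeq2 1.42.0, with upper-quartile or RLE scaling, with no filter beyond 1 count, with a mean of at least 50 counts, with limma 3.58.1 on log2(FPKM + 1) where 3 libraries reached 1 FPKM, with a replicate block, with splines with 5 degrees of freedom on exon length and GC content in each library, and without each library in turn. Chosen after seeing the data were leaving out replicate 1 of both groups and summing BAZ2A with RBMS2. The fits were tested on simulated data.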

Additional observations from a re-analysis of the deposited data

How the results depend on the processing

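The alternatives other than leaving out replicate 1 of both groups and the sum with RBMS2, for which calls were not counted, called 0 of the 9 members and 0 listed genes. BAZ2A was -0.533 with all libraries, -0.443 after the length and GC correction, -0.447 without replicate 1 of both groups, and -0.563 to -0.483 with 1 library left out. Because BAZ2A was chosen for its small spread, this narrow range was favoured by the choice. The median of the other 9 was -0.12 (-0.171 to 0.012 with 1 library left out, the highest without control replicate 1, and 0.022 without replicate 1 of both groups). Over all genes, 4 were called higher and 2 lower. These became 8 and 20 in DESeq2, 2 higher in the fit with a replicate block, 2 higher after the length and GC correction, and 1 to 7 higher and 2 to 9 lower with 1 library left out. The cause of these moves was not tested. Of 126 values for single members other than BAZ2A, 115 kept their direction and 11 turned, none with an adjusted p under 0.05. These 126 do not include the fit without replicate 1 of both groups, in which only 2 of the 9 members stayed below 0. BAZ1A turned in limma (0.011) and after the length and GC correction (0.057), as did BAZ2B (0.069) and SMARCA5 (0.024) after the correction and UBTF in limma (0.004). With 1 library left out, BAZ1A ran from -0.081 to 0.074, BAZ2B from -0.28 to 0.095, SMARCA1 from -0.118 to 0.012, SMARCA5 from -0.104 to 0.018 and UBTF from -0.103 to 0.079. Same-numbered libraries did not deviate together over all genes (correlations -0.0292, -0.012 and -0.0308). The labels do not say whether the numbers mark a shared batch, and correlations over all genes cannot decide it. The replicate block left BAZ2A at -0.533 and the median of the other 9 at -0.095. With 3 libraries a group, a decrease of the size fitted for BAZ2A would lie within the 95% intervals of BAZ2B, BPTF and CECR2. That size is itself favoured by the choice of BAZ2A for a low value.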
